A study of Mus musculus with 4 samples.

Results

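The 35 genes described here are interferon-stimulated genes, chosen by symbol from the gene names of the count matrices, and all 35 were among the 31053 features measured. They were followed in single cells from the ends (epiphyses) of the tibia and femur of young mice, in cell types, in 2 genotypes and at 2 ages. The mutant libraries came from mice labelled Sox9fl:fl AcanCreERT2/+, which carry floxed Sox9 and a tamoxifen-activated Cre recombinase driven from Acan, the gene of the cartilage proteoglycan aggrecan, and so expressed mainly in chondrocytes. The other mice were labelled wild type. There was 1 library for each genotype at postnatal days 13 and 19, so 4 libraries in all, and every value below is given in the order mutant day 13, mutant day 19, wild type day 13 and wild type day 19 unless it is said otherwise. The sources used here give no tamoxifen schedule, no strain for either genotype and no number of mice pooled per library, and the labels name no replicate animals.

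Interferons are secreted proteins that cells release on sensing viral or misplaced nucleic acid. Type I interferons act through the receptor chains Ifnar1 and Ifnar2 and the kinase Jak1 to assemble a complex, with Stat2 and Irf9 among its subunits, that binds the interferon-stimulated response element (ISRE) in promoters, while interferon gamma acts through Ifngr1 and Ifngr2 on promoters with the gamma-activated sequence (GAS). The genes switched on in this way encode sensors of foreign RNA and DNA, antiviral effectors, GTPases, parts of the antigen-presentation machinery and regulators that amplify or end the response. In bone, type I interferon is known to restrain osteoclast formation.

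Promoter sequence is shown for the 5 members on which the results below turn most, taken from RefSeq (GRCm38.p6), from 250 bases before to 50 bases after the transcription start. Isg20 has 3 windows in the table and Irf1 has 2. The window with a match is shown for each, and the other windows of these genes hold neither core searched. Capitals mark an ISRE core (GAAANNGAAA on either strand) or a GAS core (TTCNNNGAA), and positions count from the start base as 0 to the first base of the match. The window of Isg15, a ubiquitin-like modifier, lies at chr4:156200769-156201068 on the minus strand and holds 3 overlapping ISRE cores at -78, -72 and -66. Rsad2 (viperin), an antiviral enzyme of the radical SAM family, has an ISRE core at -120 in chr12:26456403-26456702, minus strand. The 3'-to-5' exonuclease gene Isg20 has a GAS core at -73 in chr7:78913174-78913473, plus strand. Irf1, a transcription factor that interferon gamma induces, has a GAS core at -90 in chr11:53769764-53770063, plus strand. Bst2 (tetherin), which holds budding virus at the cell surface, has a GAS core at -136 overlapping 2 ISRE cores at -130 and -124 in chr8:71537423-71537722, minus strand.
Isg15: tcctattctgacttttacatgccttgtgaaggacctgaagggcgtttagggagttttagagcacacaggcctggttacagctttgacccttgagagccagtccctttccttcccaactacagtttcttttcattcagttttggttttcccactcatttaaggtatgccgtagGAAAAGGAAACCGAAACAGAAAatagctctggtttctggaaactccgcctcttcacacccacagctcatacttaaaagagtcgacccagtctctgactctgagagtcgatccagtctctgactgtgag
Rsad2: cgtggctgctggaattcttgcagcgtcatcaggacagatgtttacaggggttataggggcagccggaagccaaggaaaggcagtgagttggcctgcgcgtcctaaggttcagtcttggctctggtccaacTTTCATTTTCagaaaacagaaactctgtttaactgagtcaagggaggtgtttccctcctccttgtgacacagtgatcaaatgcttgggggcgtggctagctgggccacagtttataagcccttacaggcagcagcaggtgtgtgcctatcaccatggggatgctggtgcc
Isg20: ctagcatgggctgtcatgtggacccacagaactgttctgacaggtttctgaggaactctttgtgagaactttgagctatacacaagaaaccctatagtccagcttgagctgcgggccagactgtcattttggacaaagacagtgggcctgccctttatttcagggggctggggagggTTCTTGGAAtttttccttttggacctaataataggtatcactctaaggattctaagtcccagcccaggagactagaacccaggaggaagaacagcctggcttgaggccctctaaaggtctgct
Irf1: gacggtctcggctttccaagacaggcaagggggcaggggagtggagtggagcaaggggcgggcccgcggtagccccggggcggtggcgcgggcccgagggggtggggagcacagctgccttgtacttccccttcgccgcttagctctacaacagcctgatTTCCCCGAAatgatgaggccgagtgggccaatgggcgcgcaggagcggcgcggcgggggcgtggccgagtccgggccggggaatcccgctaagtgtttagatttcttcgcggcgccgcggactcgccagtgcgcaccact
Bst2: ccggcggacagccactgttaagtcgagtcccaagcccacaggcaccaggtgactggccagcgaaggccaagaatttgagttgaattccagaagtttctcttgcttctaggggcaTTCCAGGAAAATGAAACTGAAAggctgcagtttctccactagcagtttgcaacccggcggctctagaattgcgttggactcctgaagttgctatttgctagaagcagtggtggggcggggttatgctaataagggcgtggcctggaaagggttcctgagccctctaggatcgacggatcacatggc

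Of the 35 members, 27 had a promoter window. An ISRE core lay in the windows of 14 of these 27 genes (51.9%), against 3.99% of all 27025 genes in the RefSeq table. GAS cores were present for 8 members (29.6%), against 9.55% of all genes. A match describes letters in these windows and is not a measured binding site.

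After barcodes with under 500 genes, over 15% mitochondrial UMIs (unique molecular identifiers, each counting 1 captured RNA molecule) or a high doublet score were removed, 7303 mutant and 6240 wild type cells remained at day 13, and 9699 mutant and 7156 wild type cells at day 19. Depth was 70507107 to 76080803 UMIs per library, with medians of 5332 to 9665 UMIs per kept cell, and any pair of libraries shared 10 to 33 kept barcodes. Clusters were given "-like" names from marker genes, with the members left out of the clustering, which gave 16 classes. Plasmacytoid dendritic-like cells (16 to 116 per library) and dendritic-like cells (11 to 40 per library) were split from 1 cluster after it was seen. In chondrocyte-like cells, Sox9 stood at 199 and 178 CPM (UMI counts scaled to a total of 1000000 for the class in that library) in mutant libraries, against 358 and 454 CPM in wild type libraries. Which exons are floxed is not given, so RNA from a recombined allele may still be counted and these values do not check the deletion. Free RNA was present: chondrocyte markers summed to 5258 and 5336 CPM in mutant B cell-like cells, against 13318 and 5310 CPM in wild type ones. CPM counts tagged molecules without a length correction, and capture can differ between genes.

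By summed level the members were highest in blood and vessel classes and lowest in the skeletal classes. Their summed level was 3833 to 5433 CPM in plasmacytoid dendritic-like cells, 1456 to 1985 CPM in macrophage-like cells and 1447 to 1738 CPM in monocyte-like cells. Fibroblast or tendon-like cells held 443 to 790 CPM, chondrocyte-like cells 242 to 367 CPM and osteoblast-like cells 130 to 230 CPM. Macrophage-like cells had the highest mean level of 8 members, while osteoblast-like cells had the lowest mean of 13 members and chondrocyte-like cells of 4. Single members did not all follow the sum. Pericyte or smooth muscle-like cells had the lowest mean of 6 members, erythroid-like cells of 4 and plasmacytoid dendritic-like cells of 3. The highest class did not overlap the next one over the 4 libraries for 8 members and overlapped it for 27. The share of all genes without such overlap was not counted.

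**Figure D1:**
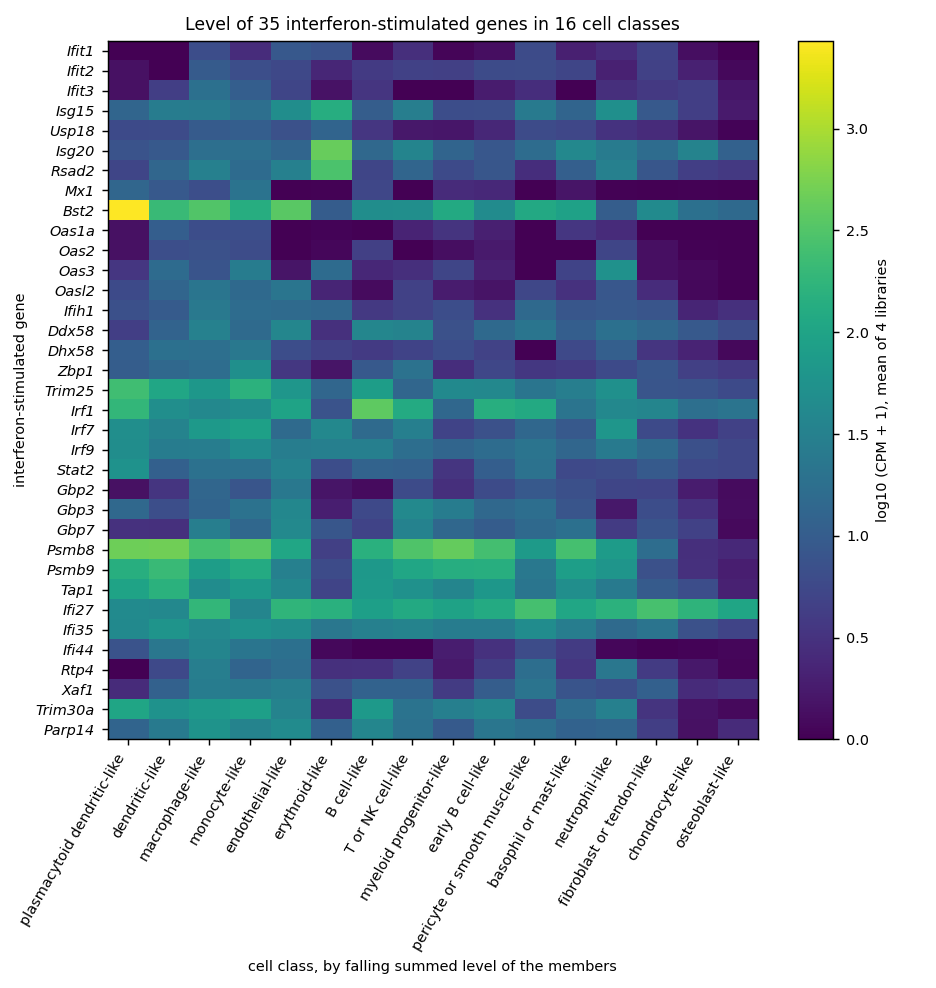
Mean level of each of the 35 members (rows, grouped by role) in 16 cell classes (columns, by falling summed level), as log10 of CPM + 1 over 4 libraries. Bst2 in plasmacytoid dendritic-like cells (2703 CPM) and Isg20 in erythroid-like cells (427 CPM) stand out, and Ifi27 is present in every class.

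Some members stood highest in a single class. Bst2 averaged 2703 CPM in plasmacytoid dendritic-like cells (2152 to 3743), against 354 CPM in endothelial-like cells, the next class (321 to 412). Plasmacytoid dendritic cells are known as strong producers of type I interferon and carry Bst2 on their surface in mice. Irf1 was highest in B cell-like cells (375 CPM, 179 to 456), and its range overlapped that of plasmacytoid dendritic-like cells (185 CPM, 149 to 260). Oas3, which makes the 2-5A messenger that activates RNase L, was highest in neutrophil-like cells (52.9 CPM, 44.3 to 63.2), apart from monocyte-like cells (26.3 CPM, 22.4 to 30.4). The cytosolic nucleic acid sensor Zbp1 was highest in monocyte-like cells (51.0 CPM, 35.5 to 63.3), and the RNA sensor Ifih1 (MDA5) in macrophage-like cells (23.2 CPM, 18.5 to 31.3). Stat2, a subunit of the complex that binds the ISRE, was highest in plasmacytoid dendritic-like cells (54.9 CPM, 42.9 to 65.0). The antigen-processing genes Psmb8 and Psmb9 (immunoproteasome subunits) and Tap1 (peptide transporter) were highest in dendritic-like cells, at 487, 209 and 155 CPM, with ranges that overlapped those of plasmacytoid dendritic-like cells. Endothelial-like cells led for the GTPases Gbp2 (22.3 CPM) and Gbp7 (40.8 CPM) and the RNA sensor Ddx58 (RIG-I; 37.1 CPM), each overlapping the next class. Ifi27, a small hydrophobic membrane protein, was the exception among the members: it was highest in fibroblast or tendon-like (274 CPM) and pericyte or smooth muscle-like cells (260 CPM) and lowest in monocyte-like cells (35.5 CPM).

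Relative to the median of the other classes, the leading members differed by class. Mx1 was among the 3 leading members of 8 blood classes, at 19.2 CPM in monocyte-like cells, 12.5 CPM in plasmacytoid dendritic-like cells, 8.12 CPM in dendritic-like cells and 0.552 CPM in basophil or mast-like cells. Ifi44 stood at 36.0 CPM in macrophage-like, 21.9 CPM in dendritic-like, 20.8 CPM in monocyte-like and 17.3 CPM in endothelial-like cells, averages that hide the genotype difference given further on. Isg20 (32.8 CPM), Ifit3 (3.37 CPM) and Ifi27 (169 CPM) led in chondrocyte-like cells, at 2.16, 1.86 and 1.38 times the median of the other classes. In osteoblast-like cells no member reached that median, and the nearest was Ifi27 (103 CPM, 0.820 times). Gbp3 (39.7 CPM), Gbp7 (31.9 CPM) and Zbp1 (18.9 CPM) led in T or NK cell-like cells, and Rtp4, an interferon-induced chaperone, stood at 22.3 CPM in neutrophil-like and 16.2 CPM in pericyte or smooth muscle-like cells.

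Class differences were tested over the 4 libraries with the edgeR quasi-likelihood test on summed UMIs, with library as a block and Benjamini-Hochberg adjustment at 0.05 over all genes. In macrophage-like over chondrocyte-like cells, 32 of 34 tested members were higher and 1 was lower, where 60.8% of all 12813 genes were called, 26.4% higher and 34.4% lower; the members' median log2 difference was 3.53, against -0.16 over all genes. Large differences included Trim30a, a regulator of NF-kappaB signalling (7.02 ± 0.35 SE), Psmb8 (6.78 ± 0.24), the ADP-ribosyltransferase Parp14 (6.53 ± 0.24) and Mx1, a dynamin-like antiviral GTPase (6.14 ± 0.77). Isg20 was the member that was lower in macrophage-like cells (-1.61 ± 0.42, adjusted p = 0.00809), and Ifi27 was not called (-0.21 ± 0.14, adjusted p = 0.227). In monocyte-like over neutrophil-like cells the members split: 13 of 27 were higher and 8 were lower, against 62.1% of all genes called, 32.4% higher and 29.7% lower. The higher ones included Mx1 (6.05 ± 0.59), Gbp3 (4.45 ± 0.49), Zbp1 (2.48 ± 0.25) and Psmb8 (1.55 ± 0.13). Those that were lower in monocyte-like cells, and so higher in neutrophil-like cells, included Ifi27 (-2.85 ± 0.21), Isg15 (-2.32 ± 0.30), Rsad2 (-1.86 ± 0.27), Oas3 (-1.76 ± 0.16) and Isg20 (-1.37 ± 0.21).

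Erythroid-like cells, identified by haemoglobin genes, were the highest class for Isg20, Rsad2 and Isg15, each apart from the next class. Isg20 stood at 410 and 421 CPM in mutant and at 450 and 427 CPM in wild type erythroid-like cells, against a mean of 38.9 CPM in basophil or mast-like cells, the next class. Rsad2 stood at 293 and 304 CPM in mutant and at 185 and 350 CPM in wild type cells, against 30.6 CPM in endothelial-like cells. Isg15 stood at 102 and 110 CPM in mutant and at 117 and 218 CPM in wild type cells, against 49.5 CPM in neutrophil-like cells. Other members were low there: the mean levels of Bst2 (8.86 CPM), Irf1 (6.47 CPM), Ddx58 (2.01 CPM) and Zbp1 (0.587 CPM) were below those of all 15 other classes. Usp18, the protease that removes Isg15 from proteins, was also highest in erythroid-like cells (11.7 CPM), with a range that overlapped that of monocyte-like cells (9.69 CPM).

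Within the erythroid-like class, Rsad2 differed between clusters. In cluster 19, led by haemoglobin genes, Tmcc2 and Rsad2 itself, Rsad2 stood at 651 and 759 CPM in mutant and at 434 and 573 CPM in wild type cells. In cluster 20, led by Hemgn, Sptb and Slc4a1, it stood at 83.5 and 113 CPM in mutant and at 135 and 217 CPM in wild type cells, so the clusters did not overlap. Isg15 was higher in cluster 19 in all 4 libraries (219, 213, 136 and 313 CPM, against 56.4, 87.3, 132 and 179 CPM in cluster 20), and so was Ifit1, an RNA-binding antiviral protein (9.83, 23.8, 13.9 and 21.6 CPM, against 0, 1.51, 0 and 2.65 CPM). Isg20 differed little in CPM, with 489, 534, 525 and 436 CPM in cluster 19, against 447, 442, 468 and 472 CPM in cluster 20. Ifih1 ran the other way, with 9.83, 17.4, 3.48 and 10.4 CPM in cluster 19, against 18.8, 17.7, 19.3 and 16.1 CPM in cluster 20. The edgeR fit with TMM scaling (trimmed mean of M values), added after Rsad2 was seen among the leading genes, called all 13 tested members higher in cluster 19, where 61.9% of all genes were called. Among them were Ifih1 (0.70 ± 0.27, adjusted p = 0.0279), lower in CPM in all 4 libraries, and Trim25 (0.87), Irf9 (1.02) and Ifi35 (1.14), each lower in CPM in 3 of 4 libraries. Direction therefore depends on the scaling for these 4 genes. For Isg20 the edgeR fit gave 1.31 ± 0.14 (adjusted p = 3.2e-08), so the size of its difference depends on the scaling too. The CPM values are the description given here.

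**Figure D2:**
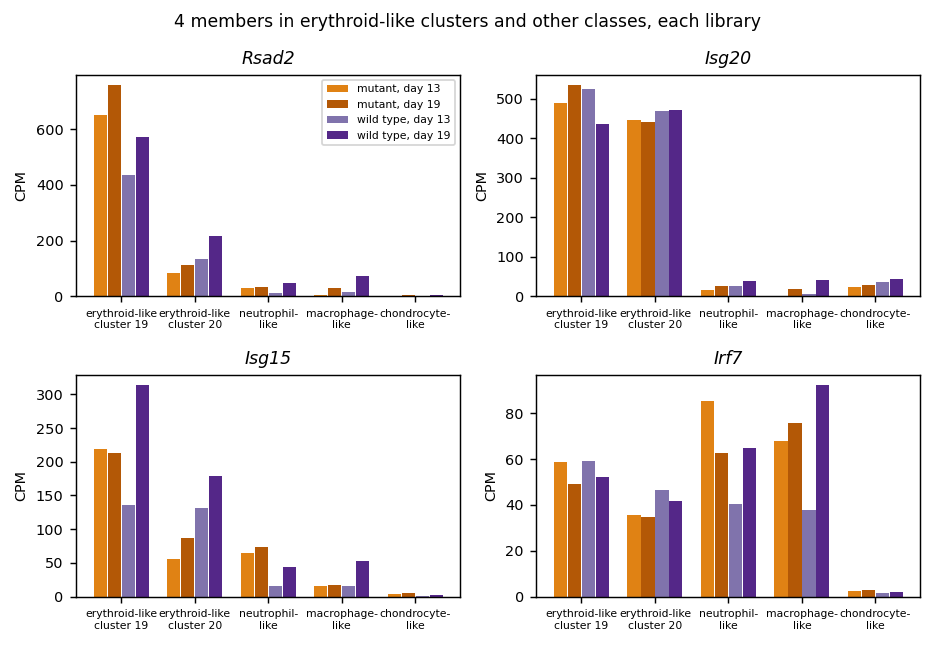
CPM of Rsad2, Isg20, Isg15 and Irf7 in 2 erythroid-like clusters and 3 other classes, with 1 bar per library. Rsad2 lies between 434 and 759 CPM in cluster 19, above every bar of cluster 20 (83.5 to 217 CPM), while Isg20 is similar in both clusters and Irf7 is of a similar level in neutrophil-like and macrophage-like cells.

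Few cells held several members at once when depth was made equal. Each cell with 2000 UMIs or more was thinned to 2000 UMIs, and shallower cells were left out. In neutrophil-like cells 261, 858, 131 and 397 cells were used, of 483, 1399, 285 and 485. Cells with a UMI of at least 3 of 10 core members were counted (Ifit1, Ifit2, Ifit3, Isg15, Rsad2, Usp18, Oasl2, Rtp4, Irf7 and Ifi44). Exact Clopper-Pearson 95% intervals cover counting error only. In mutant erythroid-like cells the share was 2.84% (0.929 to 6.505) at day 13 and 3.70% (2.61 to 5.09) at day 19. In wild type erythroid-like cells it was 5.32% (2.58 to 9.56) at day 13 and 5.51% (4.36 to 6.84) at day 19. The intervals of the genotypes overlapped at both ages. Unthinned shares were 8.84%, 9.59%, 11.3% and 18.7%, at medians of 5852, 4666, 5205 and 7630 UMIs. Macrophage-like cells held 0%, 1.69%, 2.70% and 4.17%, where the 0 of 100 mutant cells at day 13 has an upper bound of 3.62%. Unthinned, macrophage-like cells were above erythroid-like cells, at 15.9%, 19.2%, 16.7% and 31.5%, so the order of these classes depends on depth. Chondrocyte-like cells held 0.0542%, 0%, 0.0234% and 0%, with 2, 0, 1 and 0 cells. A UMI of Rsad2 was found in 30.7% and 31.8% of thinned mutant and in 23.4% and 38.1% of thinned wild type erythroid-like cells. In thinned chondrocyte-like cells (median 11060.5, 9699, 11769 and 16640 UMIs) it was found in 0.352%, 0.499%, 0.327% and 0.372%. Unthinned, the shares were 50.3%, 45.8%, 37.9% and 59.6% in erythroid-like cells and 1.35%, 2.66%, 2.12% and 5.68% in chondrocyte-like cells.

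Genotype was compared within 8 classes with 50 or more cells in every library, by the edgeR quasi-likelihood test with genotype and age as terms over the 4 libraries. Such a fit leaves 1 residual degree of freedom, the difference between the genotype effects at the 2 ages. The spread behind its p-values is mostly borrowed from other genes. That prior is worth 9.77 degrees of freedom in chondrocyte-like and 67.6 in neutrophil-like cells, and is infinite in B cell-like cells. The libraries are single samples at each age, so the p-values do not measure the spread between mice. In chondrocyte-like cells 16 of 30 tested members were higher in mutant and 3 were lower, where 26.2% of all 15367 genes were called, 14.0% higher and 12.1% lower; the members' median log2 change was 0.71, against 0.01 over all genes. DESeq2 called 5 members higher (Gbp2, Gbp3, Ifit3, Irf1 and Isg15) and 2 lower (Bst2 and Isg20). The shares of all genes given here are from edgeR, and the share called by DESeq2 is not reported here. The class was made up of different clusters in the genotypes. Clusters 1, 2 and 10 held 416 to 1218 cells each in a mutant library, against 5 to 35 cells in a wild type library, and cluster 21 held 18 and 32 mutant cells, against 1060 and 248 wild type cells. In clusters 4, 6, 8, 9 and 21 alone, those named chondrocyte-like from their own leading genes, 2 of 23 tested members were higher in mutant (Irf1 and Ddx58) and 2 were lower (Bst2 and Isg20), where 18.2% of all genes were called, 10.2% higher and 8.01% lower. The members' median there was 0.38, and that fit was added after the clusters were seen. Cluster makeup differed between the genotypes in that fit too, since it includes cluster 21, and the part of this in its calls was not tested.

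**Figure D3:**
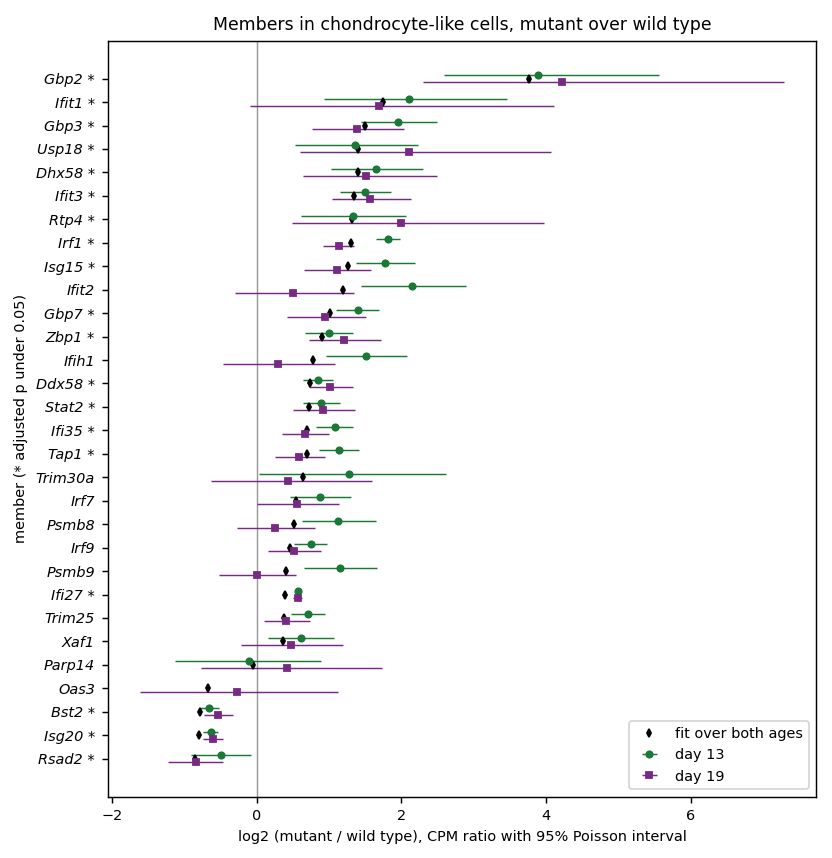
Log2 ratio of mutant over wild type for the 30 members tested in chondrocyte-like cells (rows), as the edgeR fit over both ages (diamonds) and as CPM ratios at day 13 (circles) and day 19 (squares) with exact Poisson 95% intervals; a star marks an adjusted p under 0.05. Gbp2 lies furthest right at 3.77 in the fit, and Bst2, Isg20 and Rsad2 lie left of 0.

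The cells of the class also differed in other genes. Summed chondrocyte markers stood at 55289 and 63663 CPM in mutant libraries, against 131990 and 125739 CPM in wild type libraries. Summed osteoblast markers stood at 11614 and 8242 CPM in mutant, against 3101 and 3209 CPM in wild type, and fibroblast or tendon markers at 5229 and 4488 CPM, against 1730 and 1428 CPM. The part of these differences in the members' calls was not tested beyond the fits on single clusters. Free RNA of macrophage-like or neutrophil-like cells, scaled by their defining genes, would give at most 0.233 CPM of any member that was higher, which was Ifi27 in the mutant library of day 19, and its part in the calls was not tested. TMM scaling moved log2 ratios of this class by 0.18 on average, and 25 of 30 members were positive with TMM and with DESeq2 size factors, as were 26 of 29 in plain CPM.

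Among regulators, Irf1 and Stat2 were higher in mutant chondrocyte-like cells. Irf1 stood at 24.8 and 24.9 CPM in mutant, against 7.08 and 11.3 CPM in wild type chondrocyte-like cells (log2 change 1.30 ± 0.17 SE, adjusted p = 0.000234). Stat2 stood at 6.70 and 5.80 CPM in mutant, against 3.60 and 3.07 CPM in wild type (0.72 ± 0.22, adjusted p = 0.0322). Irf7, the transcription factor that amplifies type I interferon output (0.55 ± 0.29, adjusted p = 0.199), and Irf9 (0.46 ± 0.20, adjusted p = 0.121) were not called. Usp18 was higher on 38 and 30 mutant and 19 and 4 wild type UMIs (1.40 ± 0.47, adjusted p = 0.0486), and that call was lost in 6 of 10 alternatives. The call of Stat2 was lost in 4 of 10.

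Of the 4 nucleic acid sensors, 3 were higher in mutant, where 14.0% of all genes were higher. Ddx58 stood at 10.1 and 11.5 CPM in mutant, against 5.59 and 5.69 CPM in wild type (0.74 ± 0.18, adjusted p = 0.0117). Dhx58 (LGP2), which tunes the other RNA sensors, stood at 1.67 and 1.84 CPM, against 0.534 and 0.643 CPM (1.40 ± 0.36, adjusted p = 0.0148), and Zbp1 at 4.47 and 5.04 CPM, against 2.24 and 2.18 CPM (0.91 ± 0.25, adjusted p = 0.0214). The mutant and wild type libraries did not overlap for these 3 genes, but the share of all genes without overlap was not counted. Ifih1 was not called (0.78 ± 0.38, adjusted p = 0.161). In clusters 4, 6, 8, 9 and 21 alone edgeR called Ddx58 (0.69 ± 0.20, adjusted p = 0.0278). Dhx58 (0.84 ± 0.46, adjusted p = 0.243), Zbp1 (0.62 ± 0.30, adjusted p = 0.184) and Ifih1 (0.55 ± 0.43, adjusted p = 0.430) were not called there.

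Gbp2, Gbp3 and Gbp7 and 2 of 3 Ifit genes were higher, on low counts, while Mx1, with 0, 3, 3 and 1 UMIs, was not tested. Gbp2, an interferon-inducible guanylate-binding protein, had 58 and 65 UMIs in mutant, against 5 and 2 UMIs in wild type (1.28 and 1.84 CPM, against 0.0861 and 0.0990 CPM; 3.77 ± 0.51, adjusted p = 0.000304). Its CPM ratio was 3.89 on the log2 scale at day 13 (95% Poisson interval 2.59 to 5.57) and 4.22 at day 19 (2.31 to 7.29). Gbp3 stood at 2.80 and 3.48 CPM, against 0.723 and 1.34 CPM (1.497 ± 0.31, adjusted p = 0.00465), and Gbp7 at 6.43 and 3.62 CPM, against 2.44 and 1.88 CPM (1.01 ± 0.25, adjusted p = 0.0124). Gbp genes resemble each other and lie side by side on chromosome 3, so reads may be split between them. Ifit3, an RNA-binding antiviral protein, stood at 4.87 and 5.15 CPM, against 1.72 and 1.73 CPM (1.34 ± 0.25, adjusted p = 0.00282), but its log2 difference was -0.61 in clusters 4, 6, 8, 9 and 21 alone (adjusted p = 0.303). Its level was 13.4 and 18.8 CPM in mutant cluster 10, a cluster led by the collagenase gene Mmp13. Ifit1 was higher on 27 and 17 mutant and 8 and 3 wild type UMIs (1.75 ± 0.55, adjusted p = 0.0378), with an interval at day 19 of -0.09 to 4.11, and lost the call in 4 of 10 alternatives. Ifit2 was not called (1.19 ± 0.43, adjusted p = 0.0676).

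Isg15 stood at 4.12 and 5.44 CPM in mutant, against 1.20 and 2.52 CPM in wild type chondrocyte-like cells (1.27 ± 0.27, adjusted p = 0.00519). Free RNA of erythroid-like cells, by the haemoglobin estimate, would give 0.204 and 1.04 CPM in mutant and 0.767 and 2.96 CPM in wild type. In mutant cluster 1, led by Myoc, Pi15 and Chad, Isg15 stood at 8.11 and 9.79 CPM, and in clusters 4, 6, 8, 9 and 21 alone it was not called (0.28 ± 0.34, adjusted p = 0.640). Rtp4 was just past the threshold (1.32 ± 0.45, adjusted p = 0.0499) and lost the call in 8 of 10 alternatives. The antigen-processing gene Tap1 (0.69 ± 0.22, adjusted p = 0.0368) and Ifi35, an inducible leucine-zipper protein (0.70 ± 0.20, adjusted p = 0.0254), were higher, while Psmb8 (0.52 ± 0.32, adjusted p = 0.275) and Psmb9 (0.40 ± 0.34, adjusted p = 0.427) were not called. Ifi27 made up 56.2% and 56.5% of the members' summed CPM in mutant, against 54.6% and 51.6% in wild type. It stood at 196 and 207 CPM in mutant, against 132 and 140 CPM in wild type (0.39 ± 0.12, adjusted p = 0.0369, a call lost in 4 of 10 alternatives), and at 0.07 ± 0.12 (adjusted p = 0.757) in clusters 4, 6, 8, 9 and 21 alone.

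The 3 members that were lower in mutant chondrocyte-like cells were all antiviral effectors. Isg20 stood at 23.2 and 28.5 CPM in mutant, against 36.0 and 43.3 CPM in wild type (-0.80 ± 0.13, adjusted p = 0.00104), and Bst2 at 14.5 and 12.9 CPM, against 22.8 and 18.7 CPM (-0.78 ± 0.15, adjusted p = 0.00264). Neither gene's libraries overlapped between the genotypes, but the share of all genes without overlap was not counted. Rsad2 stood at 1.72 and 3.34 CPM in mutant, against 2.41 and 5.99 CPM in wild type (-0.85 ± 0.25, adjusted p = 0.0298). Free RNA from erythroid-like cells, if it followed haemoglobin, would give 0.584 and 2.88 CPM of Rsad2 in mutant and 1.21 and 4.76 CPM in wild type libraries, and its part in the call was not tested. For Isg20 the same estimate was 0.817 and 3.98 CPM in mutant and 2.95 and 5.81 CPM in wild type libraries. The direction of Isg20 turned in cluster 5 (0.89 ± 0.29, adjusted p = 0.0503) and in cluster 4 (0.32 ± 0.19, adjusted p = 0.281), each fitted alone.

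Clusters with 50 or more cells in every library showed which calls held within a cluster. In cluster 5, led by the cell-cycle genes Cdk1 and Pbk, 5 of 17 tested members were higher in mutant, where 18.2% of all genes were called: Isg15 (2.10 ± 0.67), Irf1 (1.81 ± 0.29), Gbp7 (1.55 ± 0.43), Ddx58 (1.39 ± 0.37) and Ifi27 (0.46 ± 0.14). Bst2 was lower there (-1.46 ± 0.24, adjusted p = 0.000856 with edgeR). In cluster 8, led by Frzb, Matn1 and Ucma, Irf1 was higher (0.86 ± 0.23) and Isg20 lower (-1.13 ± 0.20) among 14 tested members, against 3.12% of all genes called. In that cluster Isg20 stood at 46.8 and 38.0 CPM in mutant, against 72.4 and 116 CPM in wild type cells. In the articular-cartilage-gene cluster 6, led by Prg4 and Cilp, Bst2 (-0.97 ± 0.26) and Isg20 (-0.70 ± 0.24) were lower among 12 tested, against 8.82% of all genes called, although Bst2 overlapped between genotypes, at 15.2 and 10.5 CPM in mutant and 46.1 and 5.95 CPM in wild type. Ifi35 was the single call among 10 members in cluster 9 (1.76 ± 0.52), where 14.2% of all genes were called. No member was called among 10 in cluster 4, led by Col10a1 and Ihh, where 17.1% of all genes were called and 2 members had an unadjusted p under 0.05.

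**Figure D4:**
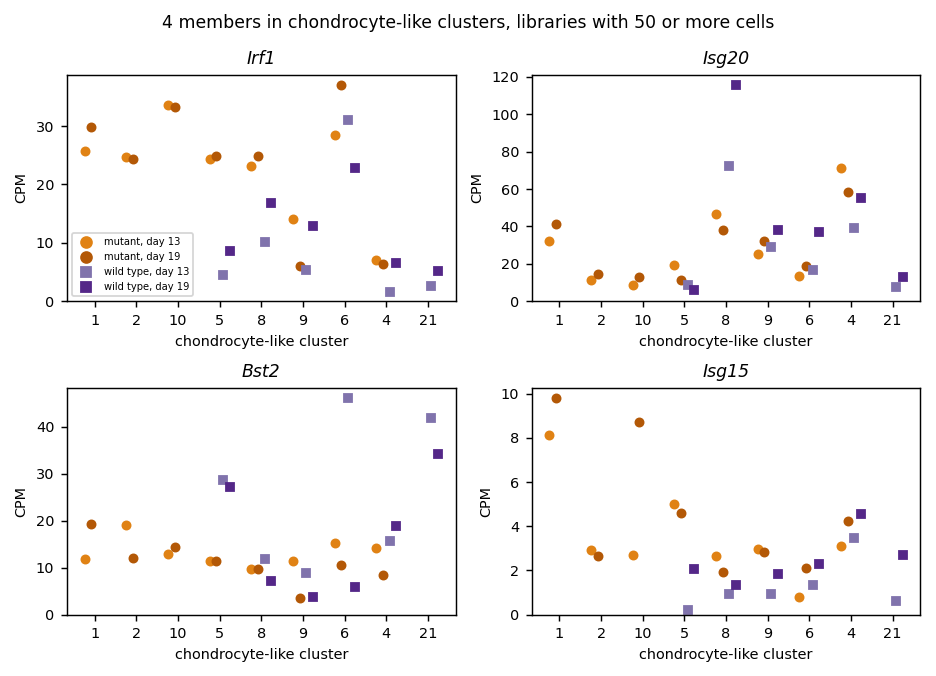
CPM of Irf1, Isg20, Bst2 and Isg15 in chondrocyte-like clusters, for libraries with 50 or more cells of a cluster (circles, mutant; squares, wild type). Irf1 lies between 24.3 and 33.5 CPM in mutant clusters 1, 2 and 10 and at 2.52 and 5.17 CPM in wild type cluster 21, and in cluster 6 the genotypes overlap.

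Irf1 also differed between the clusters that 1 genotype held nearly alone. It stood at 25.7 and 29.9 CPM in mutant cluster 1, at 24.8 and 24.3 CPM in mutant cluster 2 and at 33.5 and 33.2 CPM in mutant cluster 10, against 2.52 and 5.17 CPM in wild type cluster 21, led by C1qtnf3, Matn3 and Acan. In cluster 6, which both genotypes held, Irf1 was as high in wild type (31.0 and 22.9 CPM) as in mutant cells (28.4 and 37.0 CPM). The members' summed level followed the same division, with 345 to 473 CPM in mutant clusters 1, 2 and 10, against 193 and 217 CPM in wild type cluster 21. Few cells of the other genotype lay in these clusters. In cluster 21 the sum was 189 and 186 CPM in mutant (18 and 32 cells). In cluster 10 it was 355 and 368 CPM in mutant, against 234 and 234 CPM in wild type (7 and 5 cells), and in cluster 1 it was 402 and 473 CPM in mutant, against 383 and 333 CPM in wild type (35 and 18 cells). In cluster 6 it was 361 and 377 CPM in mutant, against 362 and 343 CPM in wild type cells.

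Outside chondrocyte-like cells few members were called by genotype. In macrophage-like cells 1 of 28 was called (0.525% of all genes), in monocyte-like cells 2 of 29 (1.22%), in neutrophil-like cells 2 of 25 (4.29%) and in erythroid-like cells 1 of 22 (1.54%). At an unadjusted p under 0.05 with edgeR there were 9, 12, 5 and 6 members in the same order. In fibroblast or tendon-like cells 0 of 20 members were called (0.637% of all genes; 4 at an unadjusted p under 0.05), in early B cell-like cells 0 of 25 (1.82%; 6 unadjusted) and in B cell-like cells 0 of 12 (1.64%; 0 unadjusted), all with edgeR, and DESeq2 made 1 call over the 7 classes. The share of all genes called by DESeq2 is not reported here. The 6 edgeR calls fell on 4 genes: Ifi44, Oasl2, Gbp7 and Isg15. With TMM 6 of 29 members were positive in monocyte-like, 7 of 28 in macrophage-like and 3 of 20 in fibroblast or tendon-like cells. Plain CPM gave 8, 8 and 2. Their median log2 changes were -0.39, -0.21 and -0.38 with TMM, against -0.003, -0.010 and 0.004 over all genes. Early B cell-like, B cell-like and neutrophil-like cells had 8 of 25, 4 of 12 and 12 of 25 positive. The list as a whole was not tested. In erythroid-like cells the sign of the whole list depended on the scaling: 1 of 22 members was positive with TMM and 0 with DESeq2 size factors, but 10 in plain CPM, and TMM moved log2 ratios of that class by 0.25 on average.

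Ifi44, a cytoplasmic interferon-induced protein, was found in mutant and not in wild type macrophage-like cells. It had 69 and 78 UMIs there (79.6 and 64.3 CPM), against 0 and 0 UMIs in wild type macrophage-like cells. With a floor of 3 counts per wild type library, this is at least 31.5-fold higher at day 13 and at least 12.3-fold higher at day 19 (adjusted p = 0.00401). Thinned to 2000 UMIs, 19.0% and 9.32% of mutant macrophage-like cells held a UMI of Ifi44, against 0 of 111 and 0 of 48 wild type cells. In monocyte-like cells it stood at 43.1 and 30.4 CPM in mutant, against 4.86 and 4.93 CPM in wild type (2.76 ± 0.49, adjusted p = 0.00227), with intervals of the log2 CPM ratio of 1.19 to 6.25 at day 13 and 1.41 to 4.13 at day 19. Endothelial-like cells held 21.8 and 30.7 CPM in mutant, against 10.1 and 6.44 CPM in wild type, on 12, 14, 9 and 1 UMIs.

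Oasl2, a relative of the oligoadenylate synthetases, ran the opposite way. In neutrophil-like cells it had 0 and 0 UMIs in mutant, against 11 and 47 UMIs in wild type (14.3 and 15.9 CPM), which with the same floor per mutant library is a log2 bound of -2.72 at day 13 and -4.65 at day 19 (adjusted p = 8.74e-09). Monocyte-like cells held 5.07 and 1.72 CPM in mutant, against 29.1 and 19.7 CPM in wild type (-2.98 ± 0.61, adjusted p = 0.00935), with intervals of -4.61 to -0.80 at day 13 and -5.90 to -1.80 at day 19, a call lost in 5 of 10 alternatives. In macrophage-like cells it stood at 9.23 and 4.95 CPM in mutant, against 30.3 and 38.3 CPM in wild type, without passing the test (-2.32 ± 0.46, adjusted p = 0.0793). Oasl2 was present in mutant endothelial-like cells at 19.97 and 13.1 CPM, against 15.8 and 32.2 CPM in wild type.

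Gbp7 was lower in mutant erythroid-like cells, at 0.776 and 0.889 CPM (1 and 5 UMIs), against 11.0 and 16.5 CPM (14 and 196 UMIs) in wild type (-4.58 ± 0.44, adjusted p = 0.00802), with intervals of the log2 CPM ratio of -9.23 to -1.11 at day 13 and -5.85 to -2.96 at day 19. It stood at 18.5 and 11.5 CPM in mutant macrophage-like cells, against 39.5 and 43.5 CPM in wild type (-1.51 ± 0.36, adjusted p = 0.172), and at 1.96 and 3.49 CPM in mutant fibroblast or tendon-like cells, against 7.66 and 14.4 CPM (-1.96 ± 0.46, adjusted p = 0.151). In chondrocyte-like cells, as given above, the same gene was higher in mutant. Ifi44 (chromosome 3, 151730922 to 151749960), Gbp7 (chromosome 3, 142530342 to 142550149) and Oasl2 (chromosome 5, 114896936 to 114912234, all GRCm38) belong to gene families with similar copies. The strains of the genotypes are not given, so a strain difference at these loci and the Sox9 genotype cannot be told apart. Isg15 was higher in mutant neutrophil-like cells, at 64.4 and 74.2 CPM, against 15.6 and 44.0 CPM in wild type (1.21 ± 0.28, adjusted p = 0.00199). DESeq2, the fit without age and 5 other choices of cells or clusters ended that call. By the haemoglobin estimate, free RNA of erythroid-like cells would give 2.20 and 6.20 CPM of Isg15 in mutant and 0.415 and 15.5 CPM in wild type neutrophil-like cells.

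**Figure D5:**
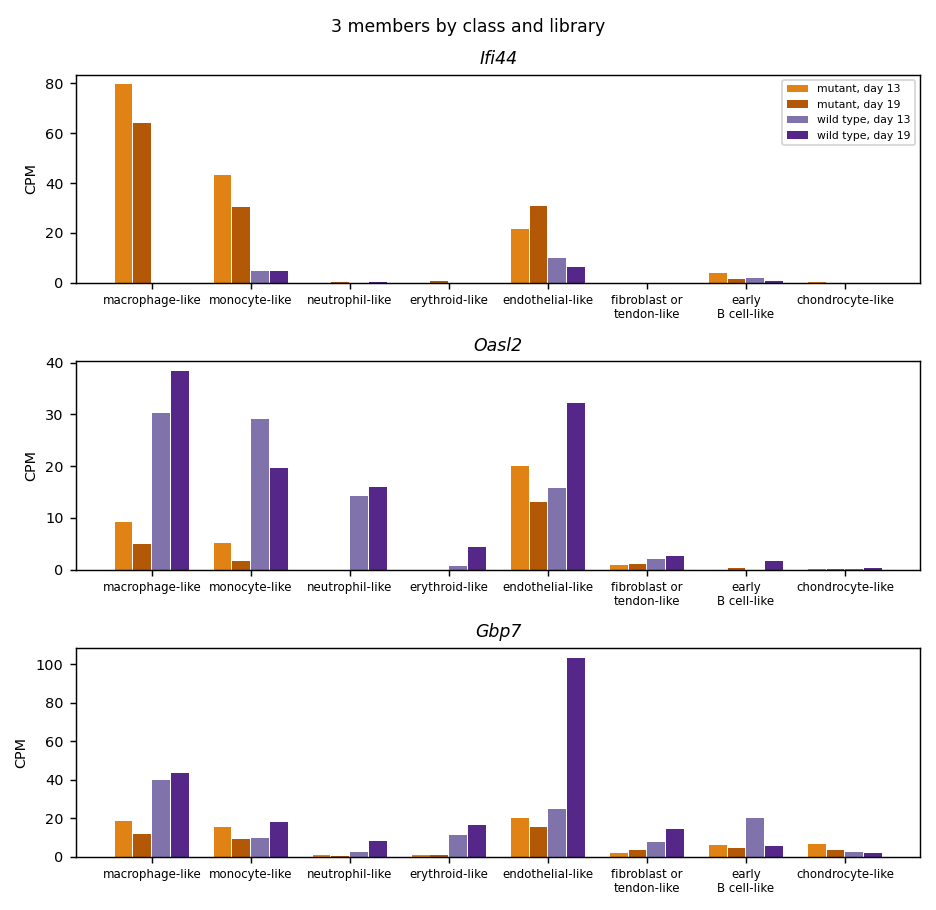
CPM of Ifi44, Oasl2 and Gbp7 in 8 cell classes, with 1 bar per library. Ifi44 is at 79.6 and 64.3 CPM in mutant macrophage-like cells and at 0 in wild type ones, Oasl2 is higher in wild type macrophage-like, monocyte-like and neutrophil-like cells, and Gbp7 is higher in mutant chondrocyte-like cells alone among the classes with a call.

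The difference between the genotype effect in chondrocyte-like cells and that in each other class was tested with edgeR on class and library sums, a test added after the effects were seen. Members were called in 3 of the 7 comparisons: 3 of 29 against erythroid-like cells (1.27% of all genes), 5 of 27 against fibroblast or tendon-like cells (5.61%) and 1 of 30 against neutrophil-like cells (2.29%). None was called against B cell-like cells (0 of 25; 0.859% of all genes, 3 unadjusted), early B cell-like cells (0 of 31; 0.453%, 12 unadjusted), macrophage-like cells (0 of 34; 0.468%, 11 unadjusted) or monocyte-like cells (0 of 35; 0.46%, 15 unadjusted). Gbp7 differed in all 3 comparisons with a call, being higher in mutant chondrocyte-like cells.

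Age gave no call here, although 8 alternative choices gave 1 to 13 calls, with shares of all genes that are not reported here. Over the 8 classes, 0 members passed the edgeR test for day 19 over day 13, where 0.618% of all genes were called in chondrocyte-like, 0.025% in macrophage-like, 0.049% in fibroblast or tendon-like, 1.53% in neutrophil-like, 1.1% in monocyte-like, 0.554% in B cell-like, 0.257% in early B cell-like and 0.0% in erythroid-like cells. At an unadjusted p under 0.05 there were 7 members in chondrocyte-like, 8 in erythroid-like, 6 each in macrophage-like and early B cell-like, 5 in fibroblast or tendon-like, 4 in neutrophil-like, 2 in B cell-like and 1 in monocyte-like cells. In erythroid-like cells 22 of 22 members were positive for day 19 over day 13 with TMM (median 0.81), and 17 of 22 in plain CPM (median 0.48), TMM moving log2 ratios by -0.31 on average. Rsad2 in macrophage-like cells came nearest to a call. It stood there at 5.77 CPM at day 13 and 28.9 CPM at day 19 in mutant, and at 13.5 and 71.4 CPM in wild type (log2 difference 2.44 ± 0.35, adjusted p = 0.061). In fibroblast or tendon-like cells it stood at 0.840 and 9.30 CPM in mutant and at 0.696 and 18.1 CPM in wild type (3.91 ± 0.57, adjusted p = 0.102). Haemoglobin moved with it: by the haemoglobin estimate, free RNA of erythroid-like cells would give 0.438 and 16.1 CPM of Rsad2 in mutant macrophage-like cells and 6.80 and 33.4 CPM in wild type ones, and 0.295 and 8.28 CPM in mutant and 1.19 and 11.3 CPM in wild type fibroblast or tendon-like cells. Erythroid-like cells made up 2.48% and 10.5% of kept mutant cells and 3.25% and 20.4% of kept wild type cells at days 13 and 19. Isg20 showed the same pairing in macrophage-like cells, with 1.15 and 19.0 CPM in mutant and 6.73 and 40.0 CPM in wild type at the 2 ages (2.95 ± 0.52, adjusted p = 0.086), against estimates of 0.614 and 22.4 CPM in mutant and 16.5 and 40.8 CPM in wild type.

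The rest of the interferon pathway was read in chondrocyte-like cells from a list of 144 genes that are not members, of which 93 were tested. Of these, edgeR called 30 higher in mutant and 4 lower, beside the 26.2% of all genes called there. The median log2 change was 0.56. DESeq2 called 17 and 2, and its share of all genes is not reported here. In clusters 4, 6, 8, 9 and 21 alone, 9 of 70 were higher and 3 lower, 17.1% of the list, where 18.2% of all genes were called, with a median of 0.25. Plscr1, a phospholipid scramblase named after its values were seen, was higher in mutant in the whole class and lower in those clusters (-0.66 ± 0.14, adjusted p = 0.00501). No interferon gene was abundant enough to test. Ifnb1 had 1 UMI, in mutant osteoblast-like cells of day 13, and Ifna13, Ifna16, Ifna2, Ifnab, Ifnk and Ifnz had at most 6 UMIs in any class and library. Interferon gamma (Ifng) was found in T or NK cell-like cells, at 157 and 375 CPM in mutant and at 380 and 481 CPM in wild type libraries.

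Among receptor chains, 2 of 5 tested were higher in mutant chondrocyte-like cells, where 14.0% of all genes were higher. Ifngr1 stood at 30.01 and 27.5 CPM in mutant, against 11.4 and 20.3 CPM in wild type (0.75 ± 0.19, adjusted p = 0.0132), and it was also called in clusters 4, 6, 8, 9 and 21 alone (0.70 ± 0.17, adjusted p = 0.0118). Ifnar1 stood at 12.5 and 12.2 CPM, against 7.45 and 6.43 CPM (0.64 ± 0.17, adjusted p = 0.0186), and it was not called in those clusters alone (0.48 ± 0.19, adjusted p = 0.0976). Ifnar2 (0.39 ± 0.13, adjusted p = 0.0514), Ifngr2 (0.16 ± 0.14, adjusted p = 0.435) and Il10rb (0.14 ± 0.22, adjusted p = 0.699) were not called, and Ifnlr1 was too low to test. Of 10 signalling genes 2 (20%) were higher, against 26.2% of all genes called in either direction: Jak1 at 125 and 116 CPM in mutant, against 62.3 and 67.6 CPM in wild type (0.71 ± 0.12, adjusted p = 0.00125), and Socs3, a feedback inhibitor of Jak signalling, at 76.8 and 77.9 CPM, against 37.5 and 47.8 CPM (0.69 ± 0.12, adjusted p = 0.00202). In clusters 4, 6, 8, 9 and 21 alone 0 of 10 were higher and 1 was lower, the phosphatase gene Ptpn2 (-0.39 ± 0.12, adjusted p = 0.038), with Jak1 at 0.15 ± 0.12 (adjusted p = 0.464) and Socs3 at 0.37 ± 0.13 (adjusted p = 0.0655).

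Among 16 genes of interferon induction 4 were called, or 25%, against 26.2% of all genes, and in clusters 4, 6, 8, 9 and 21 alone 1 of 15 was called, Ticam1. In the whole class 3 were higher: the kinase Ikbke (1.38 ± 0.27, adjusted p = 0.00361) and the adaptors Ticam1 (0.85 ± 0.26, adjusted p = 0.0316) and Myd88 (0.77 ± 0.13, adjusted p = 0.00171). Samhd1, which degrades deoxynucleotides, was the gene that was lower (-0.73 ± 0.15, adjusted p = 0.00443). In the antigen-presentation list 6 of 8 (75%) were higher, where 14.0% of all genes were higher. B2m, the light chain of class I molecules, stood at 168 and 176 CPM in mutant, against 75.5 and 97.0 CPM in wild type (0.83 ± 0.12, adjusted p = 0.000535). Also higher were Erap1, which trims peptides (0.95 ± 0.21, adjusted p = 0.0078), Tap2, the partner of Tap1 (0.84 ± 0.22, adjusted p = 0.0175), and Tapbp, which loads peptides (0.73 ± 0.13, adjusted p = 0.0016). Psmb10, an immunoproteasome subunit, was lower (-0.56 ± 0.15, adjusted p = 0.0169). In clusters 4, 6, 8, 9 and 21 alone 2 of 7 (28.6%) were higher, B2m and Tapbp, where 10.2% of all genes were higher. Erap1 (0.72 ± 0.25, adjusted p = 0.0653) and Tap2 (0.75 ± 0.29, adjusted p = 0.0887) were not called there with edgeR. Of 55 other interferon-stimulated genes 17 were higher and 2 were lower (34.5% called), against 26.2% of all genes called. In clusters 4, 6, 8, 9 and 21 alone 5 of 34 were higher and 2 were lower (20.6% called), near the 18.2% of all genes called there. Large fitted changes included Ifi204, a DNA sensor of the Ifi200 family, at 6.85 and 5.46 CPM in mutant, against 0.172 and 0.148 CPM in wild type (5.05 ± 0.35, adjusted p = 3.53e-06), Ifi211 (3.69 ± 0.54, adjusted p = 0.00051) and Gbp5 (3.17 ± 0.66, adjusted p = 0.00462). Trim12a was lower on 1 and 0 mutant UMIs, against 47 and 13 wild type UMIs (adjusted p = 0.000405), with a log2 CPM ratio of -5.20 at day 13 (95% Poisson interval -10.53 to -2.65) and, with a floor of 3 counts in the mutant library, a log2 bound of -2.92 at day 19. In clusters 4, 6, 8, 9 and 21 alone Ifi204 was 2.22 ± 0.55 (adjusted p = 0.0119), Trim5 2.85 ± 0.59 (adjusted p = 0.00364) and Trim12c -3.92 ± 0.79 (adjusted p = 0.00311). Trim12a, Trim12c and Trim5 are near-identical neighbours, as are Ifi200 genes, so counts may be split between copies, and a strain difference at these loci and the Sox9 genotype cannot be told apart.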

How the data were processed

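Single cells from epiphyses of the tibia and femur were dissociated with Liberase and sequenced from Chromium v3 libraries, per the labels' protocols. The deposited matrices hold UMI counts per gene and cell barcode, made by the authors with Cell Ranger on mm10, per the submitters' processing notes, which also name Seurat with no role. From these counts, cells needed 500 or more genes and no more than 15% of UMIs from mitochondrial genes. Doublets were removed at a fixed Scrublet score of 0.25 because the automatic threshold failed in 2 libraries (1.17% to 2.44% marked). Cells were clustered with scanpy 1.11.5 (2000 variable genes without the members, 30 components, 15 neighbours, Leiden resolution 1.0). Clusters were named from marker lists, and a second rule, set after the clusters were seen, named clusters 1, 2, 5 and 10 chondrocyte-like and cluster 14 early B cell-like. Clusters 12, 17 and 26, of mixed profile, were split by the clusters of resolution 2.0, a choice also made after they were seen. The dendritic-like and plasmacytoid dendritic-like classes come from that split of cluster 26. Classes rebuilt in this way may differ from the study's own.

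Counts were summed per class and library and tested with edgeR 4.0.16 (R 4.3.3; quasi-likelihood, TMM, filterByExpr, Benjamini-Hochberg over all genes), with DESeq2 1.42.0 as an alternative. The scripts were tested on simulated data with 2-fold genotype changes put in. At a dispersion (spread beyond counting error) of 0.02, edgeR called 72.7% of these in chondrocyte-like, 35.4% in macrophage-like and 43.3% in monocyte-like cells. At 0.05 it called 14.1%, 7.37% and 13%. A member that was not called is therefore not shown to be unchanged. Ratios at 1 age carry exact Poisson intervals, and shares carry Clopper-Pearson intervals at 95%. A floor of 3 counts was used for genes at 0. Intervals and floors cover counting error only. Library size was 70507107 to 76080803 UMIs. The 35 members, the pathway lists and the tests were chosen with earlier results of these data known. Named are the members past the genotype test in each compared class, those with the largest changes at 10 CPM or more in chondrocyte-like cells, the 3 leading members of a class relative to the median of the other classes, all receptors, the ligands with a UMI and up to 4 other genes per pathway list; Plscr1, Psmb10, Samhd1, Trim12c and Trim5, and members named as not called, were added after their values were seen. Some genes under this rule are not reported here. Alternatives changed the scaling, the low-count filter, the age term, the cell filters, doublet removal and the clustering.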

Additional observations from a re-analysis of the deposited data

Results flagged for a closer look

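The genotype effect in chondrocyte-like cells differed from that in another class for 9 pairs of member and class, by a test of the difference itself with edgeR. Values are log2 differences of mutant over wild type, chondrocyte-like minus the other class. Against erythroid-like cells the difference was 5.26 for Gbp7 (adjusted p = 1.16e-08), 2.23 for Isg15 (adjusted p = 1.98e-06) and 2.11 for Irf1 (adjusted p = 0.00324). Isg15 stood at 102 and 110 CPM in mutant and at 117 and 218 CPM in wild type erythroid-like cells, and Irf1 at 3.88 and 7.47 CPM in mutant and at 3.93 and 10.6 CPM in wild type ones. TMM scaling moved the erythroid-like ratios by 0.25 on average, and 10 of 22 members were positive there in plain CPM, against 1 with TMM.

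Against fibroblast or tendon-like cells the difference was 3.05 for Gbp7 (adjusted p = 0.0231), 3.93 for Gbp2 (adjusted p = 0.0135), 2.75 for Isg15 (adjusted p = 0.0332), 1.45 for Irf1 (adjusted p = 0.0215) and 1.60 for Psmb8 (adjusted p = 0.0498). Psmb8 stood at 9.80 and 8.72 CPM in mutant and at 12.9 and 32.5 CPM in wild type fibroblast or tendon-like cells, and Gbp2 at 3.36 and 4.65 CPM in mutant and at 4.53 and 3.61 CPM in wild type ones. Against neutrophil-like cells the difference for Gbp7 was 4.35 (adjusted p = 0.00106), on 1 and 2 mutant and 2 and 24 wild type UMIs in neutrophil-like cells. The chondrocyte-like class held different clusters in the genotypes, and the part of that composition in these differences was not tested.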

How the results depend on the processing

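The count of members higher in mutant chondrocyte-like cells (16) was 5 with DESeq2 and 8 without the age term. With clusters taken alone, all chosen after seeing the data, it was 0 in cluster 4, 5 in cluster 5, 0 in cluster 6, 1 in cluster 8, 1 in cluster 9 and 2 in clusters 4, 6, 8, 9 and 21 together, and the count of lower members (3) was 0, 1, 2, 1, 0 and 2 in the same order; these fits hold fewer cells and test fewer members. Directions turned in cluster 4 for Isg15 (-0.29) and Isg20 (0.32), in cluster 5 for Isg20 (0.89) and Rsad2 (0.047), in cluster 8 for Ifi35 (-0.34), Rsad2 (0.10) and Ifi27 (-0.12), in cluster 9 for Gbp7 (-0.49), Stat2 (-0.10), Bst2 (0.088) and Ifi27 (-0.19), and in the 5 clusters together for Ifit3 (-0.61); the cause was not tested. Calls in the other classes (6) numbered 10 with DESeq2 size factors, 18 without the low-count filter, 1 with DESeq2, 2 without the age term and 3 with a minimum of 1000 genes, which left 6 of 8 classes. Age calls (0) numbered 2 with size factors, 13 without the filter, 2 at 1000 genes, 5 at a mitochondrial limit of 10%, 1 with doublets kept, 3 with the members left in the clustering, and 1 each at Leiden resolutions 0.5 and 2.0. Pathway genes higher (30) and lower (4) were 17 and 2 with DESeq2, and 9 were higher in the 5 clusters together. Shares of all genes called under the alternative settings, other than the fits on clusters alone, are not reported here. Those counts of calls therefore do not set these genes apart from other genes. Mean Rsad2 in erythroid-like cells (283 CPM) was 151 CPM at 1000 genes, and mean Isg20 (427 CPM) was 388 CPM with doublets kept and 405 CPM at resolution 0.5. The mean share of erythroid-like cells with core members (4.34%) was 14.2% for 2 or more members, 0.967% for 4 or more, 1.54% thinned to 1000 UMIs and 2.73% at 1000 genes; in neutrophil-like cells (0.808%) it was 4.40% for 2 or more. Leaving out each library gave 30 to 32 higher and 1 lower member in macrophage-like over chondrocyte-like cells, and 10 to 12 higher and 7 to 9 lower in monocyte-like over neutrophil-like cells; without the library block these counts were 31 and 1, and 11 and 7. For genotype and age, leaving out a library leaves no residual degrees of freedom, so no such test was run. No paired analysis was possible because the labels give no replicate numbers and each group is 1 library. Of the values of single members, 191 kept direction and call, 57 kept direction without the call and 0 reversed under the alternatives other than single-cluster fits; under those fits 15, 38 and 12 did so.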
